A study of Mus musculus with 8 samples.

Results

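The members described here are 260 processed pseudogenes of the mouse kidney that had read support in this RNA-seq series. They were all genes of the biotype processed pseudogene, outside chromosomes X and Y, with a mean of at least 50 counts over the 8 libraries, and were taken from a table of 30587 genes that holds 3218 processed pseudogenes. They were chosen by their raw counts averaged over both genotypes together, and the difference between the genotypes was not used. Kidneys were from Tsc1-KO mice (Tsc1f/f/Aqp2 Cre, libraries Tsc1-KO 5 to 8) and from WT C57BL/6 mice (libraries WT 1 to 4), both 28 days old. In Tsc1-KO mice, Cre recombinase driven by the Aqp2 promoter acts on floxed Tsc1 in the principal cells of the collecting duct, while whole kidney RNA was sequenced, so every other kidney cell type contributed to each library. The sample labels give C57BL/6 for WT only, whereas the description of the series gives it for both genotypes.

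A processed pseudogene is a copy of a spliced messenger RNA that was reverse-transcribed, usually by the LINE-1 machinery, and inserted elsewhere in the genome. It therefore lacks the introns of its parent gene and has no promoter of the parent, and the parents are typically genes with abundant transcripts, such as those of ribosomal proteins and glycolytic enzymes. Because many copies are almost identical to the parent, a read from the parent's messenger RNA can align to the copy, and the counts of both are uncertain for that reason. Copies also differ between inbred strains in presence and in sequence. The matched parent of a member was the protein-coding gene of the GENCODE M21 annotation (build GRCm38) whose transcript gave the best alignment over at least 50% of the copy at an identity of at least 90%. Spliced transcripts were taken first, and a single-exon transcript only where no spliced one reached these limits. A parent was found for 249 of the 260 members, at 201 distinct genes, and for 47 of the 53 members with a -ps symbol the match was the gene that the symbol names.

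The libraries held between 26453073 and 31226739 counts. The kidney markers Umod, Slc34a1, Lrp2, Slc12a1, Slc12a3, Aqp2 and Nphs1 were all present, with 640 counts as the lowest value in any library (Nphs1 in Tsc1-KO 6), whereas Acta1 of muscle had 10 counts or fewer and Snap25 of neurons 49 or fewer. Tsc1 had 1973, 1024, 1637 and 1496 counts in Tsc1-KO, against 1180, 1426, 1471 and 1430 in WT (log2 change -0.05, edgeR adjusted p = 0.933), so whole-gene counts of whole kidney did not separate the genotypes at the floxed gene. Slc34a1, a proximal tubule transporter, was lower in Tsc1-KO (log2 change -0.65, edgeR adjusted p = 0.0183), a call that was lost without Tsc1-KO 5 (adjusted p = 0.0508), Tsc1-KO 8 (adjusted p = 0.0613) or WT 3 (adjusted p = 0.0626). In bulk RNA fewer cells of a type and less RNA per cell cannot be told apart. Tsc1-KO 7, Tsc1-KO 8, WT 3 and WT 4 carried over 1000 reads of Y-linked genes.

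Most of these pseudogenes did not differ between the genotypes beyond the spread of the libraries, but a few differed by very large factors. By the edgeR quasi-likelihood test, adjusted over all 18048 tested genes, 9 of the 260 were higher in Tsc1-KO (3.46%), where 3.5% of all tested genes were higher, and 5 were lower (1.92%), where 1.16% of all tested genes were lower. In either direction the share was 5.38%, against 4.67% of all tested genes. Among the other autosomal genes with a mean of at least 50 counts, 3.81% were higher, 1.35% lower and 5.16% either. The sizes stood apart from this background more than the number of calls did: 13 members (5.0%) were called with a log2 change of at least 2 in size, against 1.0% of all tested genes and 0.606% of the other autosomal genes with a mean of at least 50 counts. At a log2 change of at least 4, these shares were 3.08% of the members, 0.31% of all tested genes and 0.142% of the other autosomal genes. The groups were not matched for read level, and the median of the mean count was 142 over the members. The median log2 change was -0.05 over the members and 0.0049 over all tested genes. The genotypes did not overlap at 22 members (8.46%), against 11.5% of all tested genes and 12.5% of the other autosomal genes. With 1 library left out in turn, 11 of the 14 called members were called in all 8 fits. Within the libraries with Y-linked reads all 14 had the same sign and 9 were called (the exceptions were Gm7658, Gm3571, Gm48496, Gm13655 and Gm7993), and within those without such reads all 14 had the same sign and 13 were called (the exception was Gm12191). Of the 14 called members, 9 had a genotype mean of at least 50 counts in 1 genotype only, so their presence among the members rested on the genotype in which they were high.

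**Figure D1:**
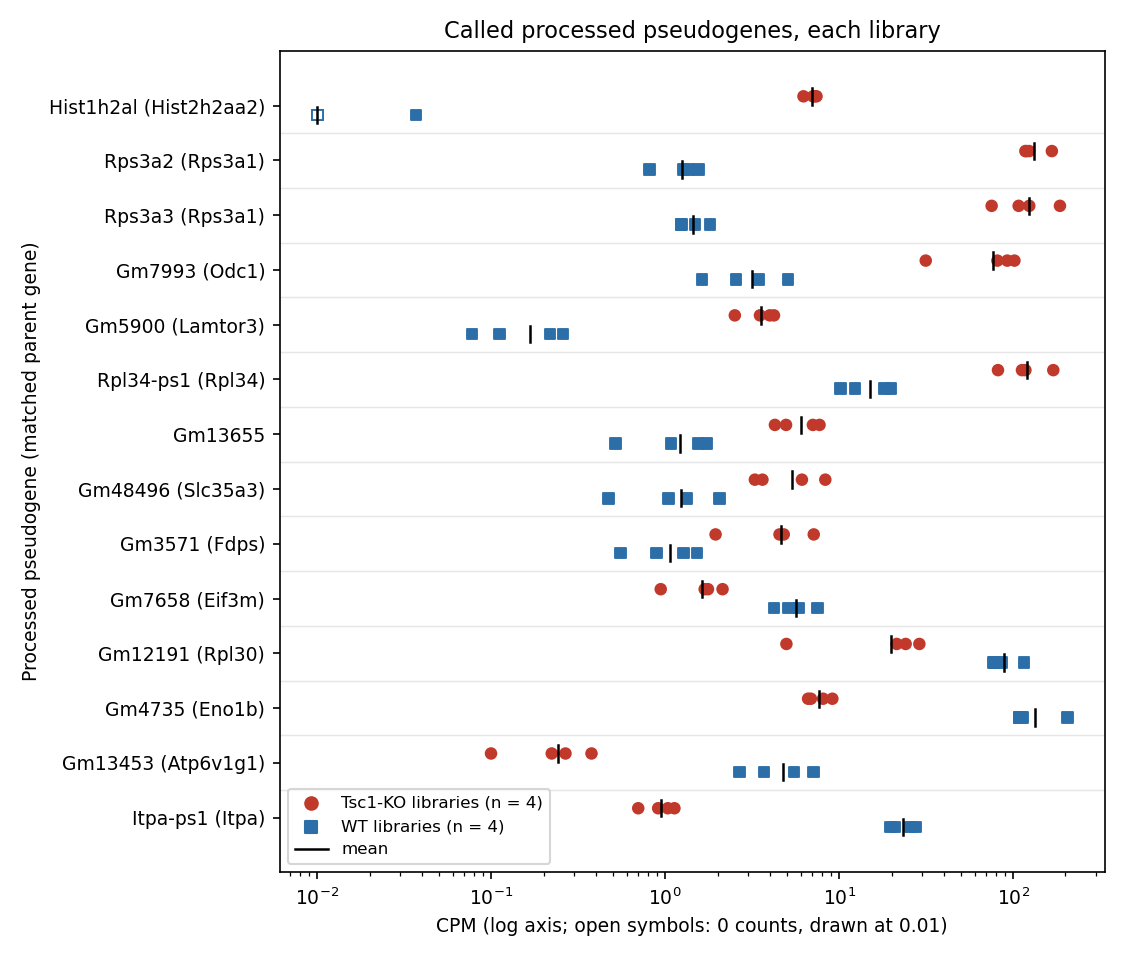
Level in CPM (counts scaled to library size with TMM factors, log axis) of the 14 called processed pseudogenes in each library, with the matched parent in brackets; circles are Tsc1-KO libraries (upper line of each row), squares WT libraries (lower line), and black strokes the genotype means. The genotypes do not overlap at any of the 14, and 9 members lie to the right in Tsc1-KO and 5 to the left.

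An all-or-none difference, in which the highest CPM of 1 genotype was under 0.05 of the lowest CPM of the other, was seen at 3 of the 260 members (1.15%) and at 7 of the 13371 other autosomal genes with a mean of at least 50 counts (0.0524%) in either direction. All 3 members were high in Tsc1-KO and near 0 in WT, the direction seen at 0.0299% of the other autosomal genes, while 0.0224% of those showed the opposite direction. They were Rps3a2, Rps3a3 and Hist1h2al, and the first 2 are copies of Rps3a1, which encodes a protein of the small ribosomal subunit. At a ratio of 0.1 there were 5, and the added members, Itpa-ps1 and Gm4735, were lower in Tsc1-KO. At a ratio of 0.02 there were 2. Rps3a2, Rps3a3 and Hist1h2al each had a mean under 50 counts in WT and entered the members through Tsc1-KO alone. Only 1 genotype had a mean of at least 50 counts at 33 of the 260 members, so the contrast of these shares is a description only.

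Rps3a2 (chr14:88123017-88123808, minus strand, GRCm38) and Rps3a3 (chr13:108670603-108671397, plus strand, within the span of Pde4d and clear of its exons) each carry the whole coding sequence of Rps3a1 with no intron. Rps3a2 differed from Rps3a1 at 4 of 792 coding bases, Rps3a3 at 9, and the copies differed from each other at 9. The stretch of 100 bases with the most differences is shown because such bases are what tells a read of one locus from a read of another. Capitals mark, in the parent, each base at which either copy differs and, in a copy, each base that differs from the parent. In Rps3a1 the stretch lies at chr3:86138110-86138581 (minus strand) and crosses 1 exon junction, in Rps3a2 at chr14:88123135-88123234 and in Rps3a3 at chr13:108671177-108671276, and it crosses none in the copies.
Rps3a1: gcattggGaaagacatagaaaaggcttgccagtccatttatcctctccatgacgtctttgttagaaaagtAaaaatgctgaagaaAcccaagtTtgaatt
Rps3a2: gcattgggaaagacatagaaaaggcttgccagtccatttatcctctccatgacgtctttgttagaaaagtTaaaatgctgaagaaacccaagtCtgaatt
Rps3a3: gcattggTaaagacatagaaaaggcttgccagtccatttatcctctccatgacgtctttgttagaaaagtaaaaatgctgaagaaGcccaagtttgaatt

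Rps3a2 had 3524, 5026, 3792 and 3890 counts in Tsc1-KO, against 43, 21, 37 and 34 in WT. Rps3a3 had 3710, 5594, 3425 and 2366 counts in Tsc1-KO, against 50, 32, 40 and 33 in WT. Every Tsc1-KO library was thus far above every WT library at both copies. CPM, the level used below, is the count scaled to library size with TMM factors. The log2 changes were 6.71 ± 0.21 (SE, edgeR adjusted p = 5.47e-08) and 6.41 ± 0.31 (edgeR adjusted p = 3.20e-06), a 105-fold difference for Rps3a2 and an 85.1-fold difference for Rps3a3. The parent moved the other way. Rps3a1 had 2339, 2675, 2286 and 6284 counts in Tsc1-KO, against 14064, 9655, 9638 and 8747 in WT (log2 change -1.84 ± 0.33, edgeR adjusted p = 0.0165). Tsc1-KO 8 lay between the other Tsc1-KO libraries and WT at the parent, and it had the lowest Rps3a3 count of the Tsc1-KO libraries. Without Tsc1-KO 8 the log2 change of Rps3a1 was -2.30 (edgeR adjusted p = 0.000123), while the call was lost without Tsc1-KO 6 (adjusted p = 0.0760) or WT 1 (adjusted p = 0.0537), with no filter on low counts (log2 change -1.85, adjusted p = 0.0737), and within the libraries with Y-linked reads (log2 change -1.33, adjusted p = 0.515). Summed over Rps3a1 and its 7 matched processed pseudogenes, the level was 368 ± 69.1 CPM in Tsc1-KO and 395 ± 81.8 CPM in WT (SD, n = 4 each), with a log2 change of -0.10 (edgeR adjusted p = 0.828). Parent and copies changed in opposite directions, and their sum did not differ between the genotypes beyond its spread.

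Hist1h2al (chr13:51202727-51203065, minus strand) is a histone H2A copy of 339 bases, and it overlaps an exon of Gm44341 on the other strand. It had 212, 223, 230 and 196 counts in Tsc1-KO, against 0, 0, 1 and 0 in WT. The 861 counts in Tsc1-KO and the single count in WT gave a ratio of 749 after scaling to library size, with a 95% exact interval of 134 to 29607 (edgeR adjusted p = 2.79e-06). It is listed as a processed pseudogene, although its nearest match, Hist2h2aa2, has a single exon itself and ties with 1 other gene. Neither the level nor the change of that parent was analysed here. The Tsc1-KO libraries were close to each other, at 6.99 ± 0.520 CPM (SD, n = 4).

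At Itpa, parent and copy were called in opposite directions, while at Rpl34 and Rpl30 the copy was called and the parent, with a log2 change of the opposite sign, was not. Itpa encodes inosine triphosphatase, which clears deaminated purine nucleotides, and Rpl34 and Rpl30 encode proteins of the large ribosomal subunit. The copies of Itpa and Rpl34 are shown over 100 coding bases around their differences. Itpa-ps1 (chr2:94384502-94385098, minus strand, within the span of Ttc17) differed from Itpa at 4 of 594 coding bases, and Rpl34-ps1 (chr6:71124610-71124963, plus strand) from Rpl34 at 2 of 351. The stretches lie at chr2:130675674-130679363 (plus strand, 1 exon junction) in Itpa, chr2:94384659-94384758 in Itpa-ps1, chr3:130728836-130729134 (minus strand, 1 exon junction) in Rpl34 and chr6:71124691-71124790 in Rpl34-ps1.
Itpa: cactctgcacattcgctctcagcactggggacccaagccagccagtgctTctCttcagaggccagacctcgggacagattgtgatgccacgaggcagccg
Itpa-ps1: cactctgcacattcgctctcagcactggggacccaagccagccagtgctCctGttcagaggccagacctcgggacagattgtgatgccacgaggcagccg
Rpl34: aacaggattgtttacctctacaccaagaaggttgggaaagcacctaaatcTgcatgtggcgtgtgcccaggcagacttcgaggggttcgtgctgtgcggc
Rpl34-ps1: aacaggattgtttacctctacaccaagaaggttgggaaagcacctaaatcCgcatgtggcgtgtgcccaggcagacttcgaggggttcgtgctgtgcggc

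Itpa-ps1 had 31, 34, 29 and 22 counts in Tsc1-KO, against 708, 507, 741 and 563 in WT, a 24.7-fold lower level in Tsc1-KO (log2 change -4.63 ± 0.20 SE, edgeR adjusted p = 7.71e-07). Itpa had 961, 1397, 1098 and 1063 counts in Tsc1-KO, against 225, 236, 229 and 220 in WT (log2 change 2.11 ± 0.14, edgeR adjusted p = 1.36e-05). Of the counts of the pair, the copy held from 2.03% to 3.12% in Tsc1-KO libraries and from 68.2% to 76.4% in WT libraries. The sum of the pair was 37.6 ± 6.66 CPM in Tsc1-KO and 31.9 ± 3.49 CPM in WT (SD, n = 4 each; log2 change 0.24, edgeR adjusted p = 0.418). Both loci are on chromosome 2, and no library fell between the genotypes at either.

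Rpl34-ps1 had 3525, 5123, 3579 and 2573 counts in Tsc1-KO, against 548, 263, 491 and 331 in WT (log2 change 2.99 ± 0.27 SE, edgeR adjusted p = 0.000279). The parent Rpl34 had 158, 122, 173 and 1881 counts in Tsc1-KO, against 4492, 3418, 3500 and 3202 in WT. Its log2 change of -2.87 missed the threshold (edgeR adjusted p = 0.206) although the genotypes did not overlap, and without Tsc1-KO 8 it was -4.79 (edgeR adjusted p = 4.81e-07). Tsc1-KO 8 was the only Tsc1-KO library with more than 173 counts of Rpl34, as it was the highest of its genotype at Rps3a1, and both parents lie on chromosome 3. The sum over Rpl34 and its 6 matched copies was 140 ± 25.6 CPM in Tsc1-KO and 154 ± 22.6 CPM in WT (SD, n = 4 each; log2 change -0.14, edgeR adjusted p = 0.708).

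Gm12191, a copy of Rpl30 within the span of Cnot6, had 149, 870, 682 and 758 counts in Tsc1-KO, against 3188, 2010, 2074 and 2303 in WT (log2 change -2.16 ± 0.47 SE, edgeR adjusted p = 0.0453). The genotypes did not overlap, but Tsc1-KO 5 stood well under the other Tsc1-KO libraries, and with 1 library left out the call was kept only without Tsc1-KO 5 (log2 change -1.84, edgeR adjusted p = 0.000607). It was also lost with Y-linked reads as a term (edgeR adjusted p = 0.0739), with no filter on low counts (adjusted p = 0.124) and within the libraries without Y-linked reads (adjusted p = 0.543). The parent Rpl30 had 3890, 3111, 2548 and 2529 counts in Tsc1-KO, against 169, 752, 1820 and 166 in WT (log2 change 1.86, edgeR adjusted p = 0.310). The genotypes did not overlap, but the WT libraries were spread widely, with WT 3 closest to Tsc1-KO. The sum over Rpl30 and its 13 matched copies was 132 ± 17.2 CPM in Tsc1-KO and 119 ± 23.9 CPM in WT (SD, n = 4 each; log2 change 0.15, edgeR adjusted p = 0.688).

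**Figure D2:**
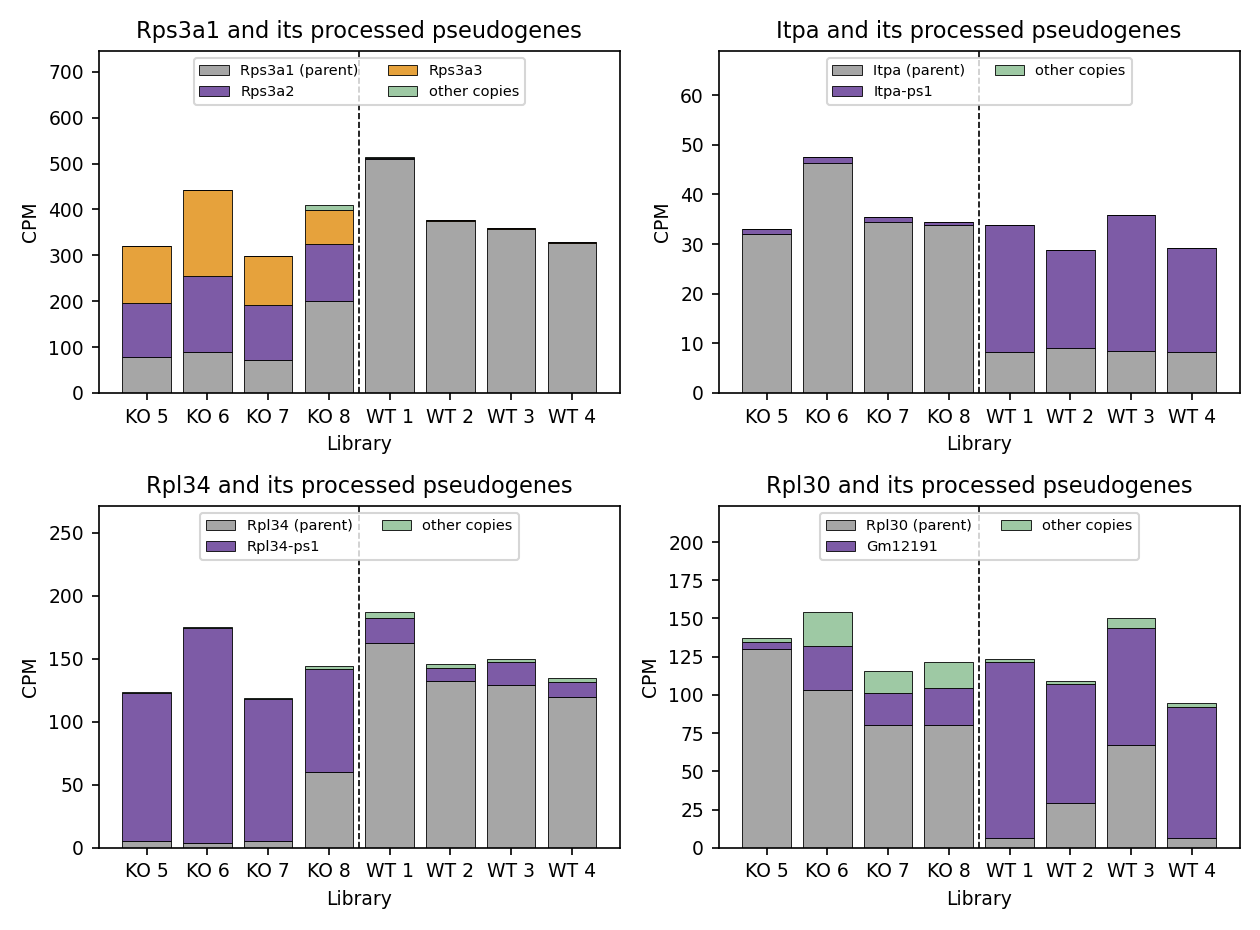
Stacked CPM of a parent gene, its called processed pseudogenes and its other matched copies in each library, Tsc1-KO 5 to 8 (KO) to the left of the dashed line and WT 1 to 4 to the right, for Rps3a1, Itpa, Rpl34 and Rpl30. The totals are alike in both genotypes (368 and 395 CPM on average for Rps3a1, 37.6 and 31.9 CPM for Itpa). The share of the copies changes with genotype and, at Rps3a1, Rpl34 and Rpl30, also among libraries of 1 genotype.

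A further group of called copies changed by large factors beside a parent with many more reads. Gm7993 copies Odc1, which encodes ornithine decarboxylase, the first enzyme of polyamine synthesis. It had 2433, 2785, 3239 and 989 counts in Tsc1-KO, against 45, 66, 137 and 92 in WT (log2 change 4.60 ± 0.48 SE, edgeR adjusted p = 0.00166). Odc1 fell to 261 ± 49.9 CPM in Tsc1-KO, against 696 ± 265 CPM in WT (SD, n = 4 each; log2 change -1.42, edgeR adjusted p = 0.00794). Here the sum over Odc1 and its 10 matched copies was also lower in Tsc1-KO (log2 change -1.04, edgeR adjusted p = 0.0368).

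Gm5900 copies Lamtor3, a part of the Ragulator complex that anchors mTORC1 signaling at the lysosome. It had 105, 127, 127 and 79 counts in Tsc1-KO, against 6, 2, 7 and 3 in WT, a 20.7-fold higher level in Tsc1-KO (log2 change 4.37 ± 0.38 SE, edgeR adjusted p = 0.000105). Lamtor3 itself had 44.5 ± 6.21 CPM in Tsc1-KO and 48.9 ± 4.09 CPM in WT (SD, n = 4 each; log2 change -0.14, edgeR adjusted p = 0.623). The copy held from 4.62% to 9.24% of the counts of the pair in Tsc1-KO libraries and at most 0.541% in WT libraries.

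Gm13453 copies Atp6v1g1, a subunit of the V-ATPase proton pump. It had 8, 3, 12 and 7 counts in Tsc1-KO, against 152, 69, 192 and 99 in WT, a 19.2-fold lower level in Tsc1-KO (log2 change -4.27 ± 0.43 SE, edgeR adjusted p = 0.000312). Atp6v1g1 was also lower in Tsc1-KO, but by far less (log2 change -0.52, edgeR adjusted p = 0.0484), and this call held when WT 2 was left out (adjusted p = 0.0350) and was lost when any other single library was and by limma on log2 FPKM (adjusted p = 0.0785). The copy held at most 2.97% of the counts of the pair in any library.

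Gm7658, a copy of the translation initiation factor gene Eif3m within the span of Kcnq5, had 64, 53, 30 and 53 counts in Tsc1-KO, against 207, 152, 114 and 137 in WT (log2 change -1.80 ± 0.28 SE, edgeR adjusted p = 0.00453). Eif3m did not pass the test (log2 change 0.27, edgeR adjusted p = 0.229). Gm48496, a copy of part of Slc35a3, a nucleotide sugar transporter of the Golgi, had 183, 109, 265 and 103 counts in Tsc1-KO, against 13, 27, 36 and 55 in WT (log2 change 2.12 ± 0.43 SE, edgeR adjusted p = 0.0189). Its call was lost without Tsc1-KO 5 (adjusted p = 0.0505), WT 2 (adjusted p = 0.0582) or WT 3 (adjusted p = 0.0596), and Slc35a3 did not pass the test (log2 change -0.41, edgeR adjusted p = 0.334).

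At 2 further called copies the matched parent changed in the same direction, by a similar factor for Gm3571 and by a smaller one for Gm4735. Gm4735 is an intronless copy of 1302 bases that matched Eno1b, an enolase gene, at 99.8% identity. It had 206, 275, 211 and 254 counts in Tsc1-KO, against 3002, 5283, 3088 and 2925 in WT (log2 change -4.13 ± 0.24 SE, edgeR adjusted p = 6.44e-06). Eno1b had 593, 472, 565 and 555 counts in Tsc1-KO, against 4294, 6874, 3582 and 3588 in WT (log2 change -3.28, edgeR adjusted p = 2.82e-05), and the sum of both with a further copy was lower as well (log2 change -3.58, edgeR adjusted p = 1.27e-05). Eno1b has only 2 exons in the annotation. Eno1, the many-intron enolase gene that was named after its values were seen, had 31587, 34745, 34469 and 35336 counts in Tsc1-KO, against 29353, 21238, 26206 and 25748 in WT (log2 change 0.21, edgeR adjusted p = 0.362). The lower level of Gm4735 and Eno1b was thus not seen at Eno1. Whether Eno1b or Eno1 is the source of Gm4735 was not tested.

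Gm3571 copies Fdps, which encodes farnesyl diphosphate synthase of the sterol pathway. It had 136, 215, 62 and 151 counts in Tsc1-KO, against 42, 33, 15 and 24 in WT (log2 change 2.11 ± 0.41 SE, edgeR adjusted p = 0.0153), and Fdps had 98, 104, 43 and 132 counts in Tsc1-KO, against 14, 23, 25 and 15 in WT (log2 change 2.09, edgeR adjusted p = 0.0109). Copy and parent were lowest of their genotype in the same library, Tsc1-KO 7. The call of Gm3571 was lost without WT 3 (adjusted p = 0.0501) or WT 4 (adjusted p = 0.0525). Gm13655 had no parent at the identity required. It had 231, 149, 136 and 222 counts in Tsc1-KO, against 48, 40, 14 and 29 in WT (log2 change 2.29 ± 0.35 SE, edgeR adjusted p = 0.00403).

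Over the 12 called members with a tested parent, 9 had a log2 change of the opposite sign to the parent, and at 4 of them the parent was itself called in the opposite direction (Rps3a2 and Rps3a3 with Rps3a1, Gm7993 with Odc1, and Itpa-ps1 with Itpa). Gm4735 was counted here with its matched parent Eno1b, whereas its sign was opposite to that of Eno1 (log2 change 0.21). Over the 235 other members with a tested parent, 99 had the opposite sign. The parent was called for 8 of these members, and each of the 8 had the sign of its parent. Of the 199 distinct tested parents, 6 were higher in Tsc1-KO (3.02%) and 5 lower (2.51%), together 5.53%, which can be read beside the 3.5% and 1.16% of all tested genes. Across all 247 pairs, Pearson's r of the log2 changes was -0.20 and Spearman's rho 0.09, as a description only, since a read can align to either of the pair and several members share a parent. Among the uncalled members alone these were 0.09 and 0.18.

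**Figure D3:**
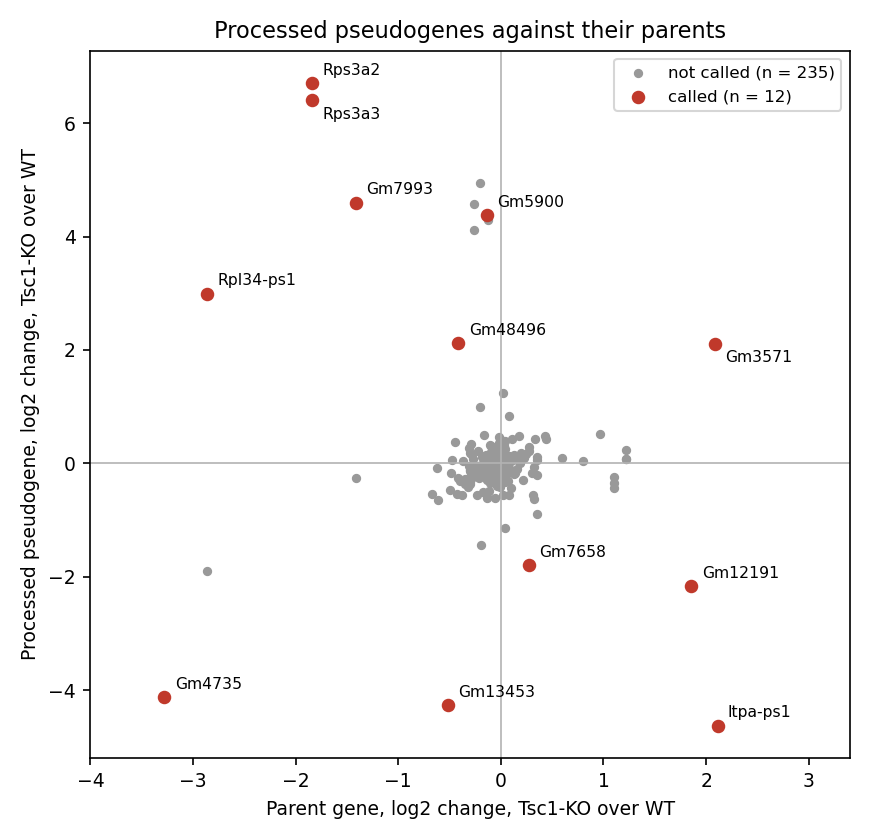
Log2 change (Tsc1-KO over WT) of each processed pseudogene against that of its matched parent, for the 247 members whose parent was tested; red points are the 12 called members and grey points the other 235. Called members with large changes lie mainly in the upper left and lower right, away from the diagonal, except Gm4735, Gm3571 and Gm13453, while most grey points cluster near 0.

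At 8 members (3.08%) the highest library exceeded the lowest by more than 20 times while the genotypes overlapped, against 64 of the 13371 other autosomal genes (0.479%). Here the libraries of 1 genotype differed from each other. Gm8730 and Gm9625, both copies of Rplp0, the stalk protein of the large ribosomal subunit, were high in the same 2 libraries. Gm8730 had 3477, 95, 40 and 3946 counts in Tsc1-KO, against 70, 61, 75 and 69 in WT. Gm9625 had 494, 15, 16 and 537 counts in Tsc1-KO, against 12, 12, 4 and 25 in WT. Tsc1-KO 5 and Tsc1-KO 8 thus stood far above all other libraries at both copies, and Tsc1-KO 6 and Tsc1-KO 7 lay at or near the WT level. The copies are on different chromosomes, Gm8730 at chr8:102864845-102865798 (minus strand) and Gm9625 at chr13:67810246-67811200 (plus strand). They differed from Rplp0 at 12 and 24 of 951 coding bases and from each other at 20, and the stretch with the most differences is shown because it holds bases at which both copies carry the same difference. It lies at chr5:115560785-115560884 (plus strand) in Rplp0, chr8:102865601-102865700 in Gm8730 and chr13:67810344-67810443 in Gm9625.
Rplp0: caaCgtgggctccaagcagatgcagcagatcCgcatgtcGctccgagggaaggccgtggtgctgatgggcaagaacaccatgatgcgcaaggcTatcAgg
Gm8730: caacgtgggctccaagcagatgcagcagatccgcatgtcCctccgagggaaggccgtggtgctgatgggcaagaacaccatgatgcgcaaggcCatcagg
Gm9625: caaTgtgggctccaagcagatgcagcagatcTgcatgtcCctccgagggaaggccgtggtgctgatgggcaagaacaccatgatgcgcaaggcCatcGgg

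Rplp0 itself had 14876, 25686, 20968 and 18137 counts in Tsc1-KO, against 25462, 20688, 19143 and 18034 in WT (log2 change -0.26, edgeR adjusted p = 0.483), with the lowest Tsc1-KO values in the 2 libraries in which the copies were high. The Tsc1-KO libraries split, and neither copy passed the test, with log2 changes of 4.58 for Gm8730 (edgeR adjusted p = 0.201) and 4.12 for Gm9625 (edgeR adjusted p = 0.182). H2-Ea-ps, a class II antigen gene listed under another biotype, had 560, 1, 0 and 704 counts in Tsc1-KO and 0 in every WT library, and so was high in the same 2 libraries.

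In 2 other copies a single Tsc1-KO library stayed at the WT level. Gm6969, a copy of the respiratory chain assembly gene Cox7a2l, had 15, 707, 691 and 695 counts in Tsc1-KO, against 13, 11, 43 and 26 in WT. Gm10020, a copy of Rpl15 of the large ribosomal subunit, had 325, 312, 4 and 324 counts in Tsc1-KO, against 3, 3, 15 and 6 in WT. The low library was Tsc1-KO 5 at Gm6969 and Tsc1-KO 7 at Gm10020, and the 3 other Tsc1-KO libraries were close to each other at both. Their log2 changes were 4.29 (edgeR adjusted p = 0.0833) and 4.95 (edgeR adjusted p = 0.0648), and each passed the test once its low library was left out (log2 change 4.69, adjusted p = 0.000201 without Tsc1-KO 5 for Gm6969, and 5.36, adjusted p = 2.47e-05 without Tsc1-KO 7 for Gm10020). DESeq2, run as an alternative, called all 4 of these copies on all libraries, with adjusted p between 0.000412 (Gm10020) and 0.0123 (Gm9625). The parents Cox7a2l and Rpl15 did not pass (edgeR adjusted p = 0.735 and 0.387).

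In the remaining 4, libraries under 0.05 of the highest were found in Tsc1-KO only at Gm3375, Gm11702 and Gm47951, and in both genotypes at Gm9522. Gm3375, a copy of the proteasome subunit gene Psmb5, had 58, 866, 683 and 1308 counts in Tsc1-KO, against 875, 1144, 1016 and 665 in WT, so that only Tsc1-KO 5 was low. Gm11702, an identical copy of 69 bases of Dctn1 (a dynactin subunit) within the span of Grb2, had 67, 1, 75 and 0 counts in Tsc1-KO, against 120, 80, 79 and 58 in WT. Gm9522 had 84, 22, 0 and 211 counts in Tsc1-KO, against 60, 21, 0 and 59 in WT, with 1 library of each genotype at 0. Gm47951 had 42, 21, 88 and 7 counts in Tsc1-KO, against 108, 135, 19 and 55 in WT. Over all 260 members, the SD of log2(CPM + 0.1) among the 4 libraries of a genotype exceeded 1 at 14 members in Tsc1-KO (5.38%) and at 8 in WT (3.08%), against 1.39% and 1.10% of the other autosomal genes with a mean of at least 50 counts.

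**Figure D4:**
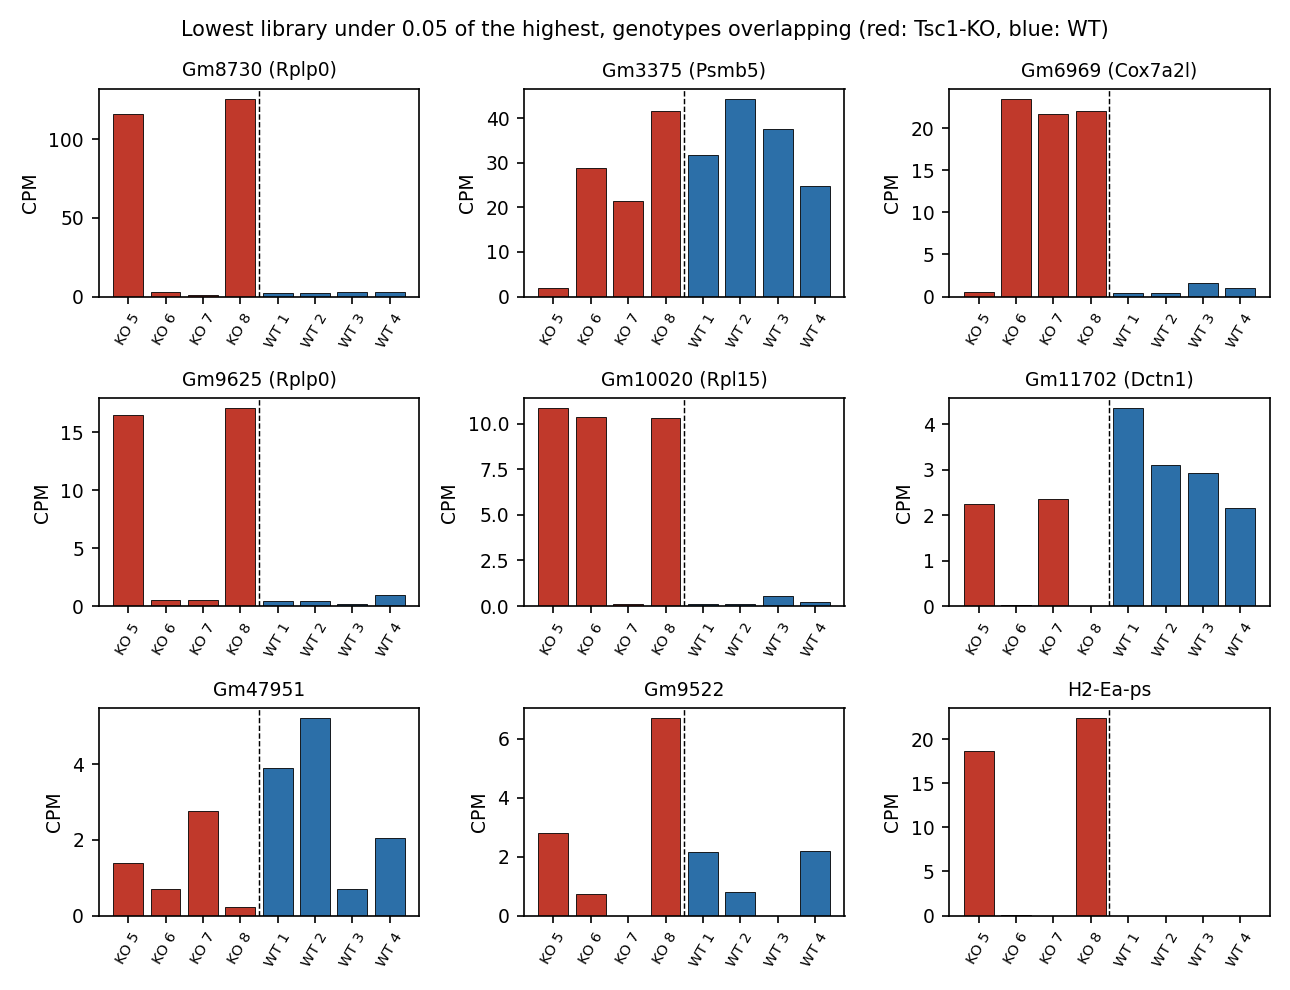
CPM in each library (red bars Tsc1-KO 5 to 8, labelled KO, blue bars WT 1 to 4) of the 8 processed pseudogenes whose lowest library was under 0.05 of the highest while the genotypes overlapped, with the matched parent in brackets, and of H2-Ea-ps. Gm8730, Gm9625 and H2-Ea-ps are high in Tsc1-KO 5 and Tsc1-KO 8 only, Gm6969 is low in Tsc1-KO 5 and Gm10020 in Tsc1-KO 7 among the Tsc1-KO libraries.

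The members with the most reads showed small differences or none that passed the test. Gm5424, a copy of the argininosuccinate synthase gene Ass1, had 7793, 8007, 12818 and 9539 counts in Tsc1-KO, against 11984, 12718, 11118 and 12056 in WT (log2 change -0.54, edgeR adjusted p = 0.0659, DESeq2 adjusted p = 0.00845), and 308 ± 65.9 CPM in Tsc1-KO against 447 ± 34.4 CPM in WT (SD, n = 4 each). Ass1, an enzyme of the urea cycle and of renal arginine synthesis, was lower in Tsc1-KO (log2 change -0.67, edgeR adjusted p = 0.00414), a call that was lost within the libraries with Y-linked reads (adjusted p = 0.286) and within those without (adjusted p = 0.0746). Mpc1-ps, a copy of a mitochondrial pyruvate carrier gene, averaged 98.0 CPM in Tsc1-KO and 114 CPM in WT (edgeR adjusted p = 0.262). Rpl17-ps10 and Rpl17-ps3, copies of Rpl17 of the large ribosomal subunit, had log2 changes of 0.016 and 0.10, Gm10039, a copy of the ATP synthase gene Atp5g1, had -0.24, and Rps10-ps2, a copy of Rps10 of the small ribosomal subunit, had -0.09 (edgeR adjusted p from 0.512 to 0.989). Rps10-ps2 held most counts of its pair, with 72.0 ± 11.4 CPM in Tsc1-KO and 76.6 ± 13.2 CPM in WT, whereas Rps10 itself had 3.91 ± 0.855 CPM in Tsc1-KO and 4.06 ± 0.980 CPM in WT (SD, n = 4 each).

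Just inside the limit on the mean count were Ndufs6b (50.1 counts) and Gm6421 (51.0 counts), and just outside it Gm7143 and Gm14150 (49.5 counts each). Gm14150 had 76, 115, 61 and 91 counts in Tsc1-KO, against 10, 17, 10 and 16 in WT.

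By the function of the parent, 67 members copied cytosolic ribosomal protein genes, of which 3 were higher in Tsc1-KO (Rps3a2, Rps3a3 and Rpl34-ps1) and 1 lower (Gm12191), with a median log2 change of -0.06. Of 8 copies of glycolytic enzyme genes, 1 was lower (Gm4735) with a median of -0.16, and of 8 copies of translation factor genes, 1 was lower (Gm7658) with a median of 0.05. None of the 16 copies of mitochondrial genes, 10 of chromatin and nucleolar genes, 10 of chaperone, ubiquitin and proteasome genes and 2 of cytoskeletal genes was called in the edgeR test, with medians between -0.29 and 0.25. Of these 38, 3 had an unadjusted p under 0.05, and DESeq2 called 1, Gm6969. The other 128 members with a parent held 5 higher and 2 lower calls, and the 11 without a parent 1 higher call. Beside these counts stand the 3.5% of all tested genes that were higher, the 1.16% that were lower and the 4.67% called in either direction, and groups of 2 to 16 members are too small to be set against such shares.

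The called members lay on 9 of the 19 autosomes. Chromosome 2 held 4 (Gm13453, Gm13655, Gm4735 and Itpa-ps1, of 24 members there) and chromosome 13 held 3 (Gm48496, Hist1h2al and Rps3a3, of 13). The 7 others held 1 each. Over all 260 members the called share was 5.38%, lower than on chromosomes 2 and 13, and this difference was not tested. The closest called pair on a chromosome, Gm13655 and Gm4735, was 5.20 Mb apart and differed in direction. Tsc1 also lies on chromosome 2, between 11.4 Mb (Gm13453) and 65.7 Mb (Itpa-ps1) from the called members there. Over all tested genes, 6.98% were called on chromosome 2 and 4.83% on chromosome 13, against a range of 2.71% to 6.98% over the autosomes. At 11 of the 12 called members whose parent is in the table, the parent is on another chromosome. The same count was not made for the uncalled members, so it does not set the called members apart.

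None of the 18 nearest tested neighbours of the all-or-none members, 3 on each side, was called in the edgeR test, with adjusted p from 0.337 to 0.996, where 4.67% of all tested genes were called. The count was also 0 at an unadjusted p under 0.05 and by DESeq2. Pde4d, whose span holds Rps3a3, and Gm44341, which overlaps Hist1h2al, were not among these 18 neighbours. Spin1, at 50.2 kb from Hist1h2al, had 88.6 CPM on average in Tsc1-KO and 81.4 CPM in WT (log2 change 0.12), and Depdc1b, at 263 kb from Rps3a3, had a log2 change of -0.38. Diaph3, at 982 kb from Rps3a2, averaged 3.43 CPM in Tsc1-KO and 1.87 CPM in WT (log2 change 0.87 ± 0.44 SE, edgeR adjusted p = 0.341). The neighbours of Rps3a2 lay between 578 kb (Tdrd3) and 4890 kb (Pcdh9) away.

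**Figure D5:**
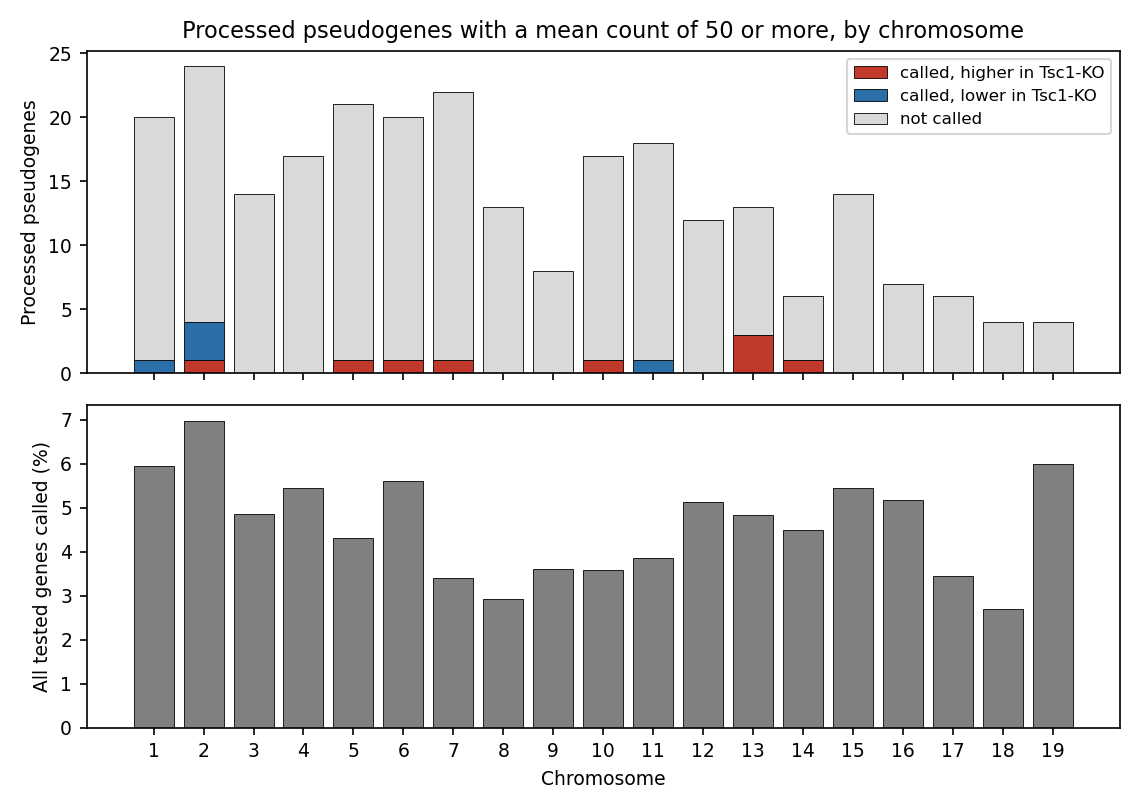
Number of the 260 processed pseudogenes on each autosome (upper panel; red called higher in Tsc1-KO, blue called lower, grey not called) and the percentage of all tested genes on that chromosome that were called (lower panel). The 14 called members fall on 9 chromosomes, with 4 on chromosome 2 and 3 on chromosome 13.

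Genes that are known to differ between inbred strains were looked at beside these results. Ifi202b, an interferon-inducible gene that is known to be barely expressed in C57BL/6 mice, had 75, 131, 70 and 102 counts in Tsc1-KO and 0 in all 4 WT libraries, at least 109.6-fold higher in Tsc1-KO against a floor of 3 counts over the WT group (the 95% exact interval of the ratio begins at 88.7). H2-Ea, whose promoter is deleted in C57BL/6 mice, is represented by H2-Ea-ps, with its counts in Tsc1-KO 5 and Tsc1-KO 8 given above. Nnt, part of which is deleted in the C57BL/6J substrain, had 70, 69, 59 and 51 counts in Tsc1-KO, against 32, 63, 57 and 30 in WT (log2 change 0.25, edgeR adjusted p = 0.764). Glo1 and Alad, which occur in extra copies in some strains, did not pass the test (log2 change 0.0034, edgeR adjusted p = 0.992, and -0.60, edgeR adjusted p = 0.128), and Entpd4 had 8 counts or fewer in every library. Whether the values of the processed pseudogenes follow sequence or copy differences between the mice was not tested. Genetic background and the loss of Tsc1 cannot be told apart where all 4 libraries of a genotype are alike.

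The following features of called and uncalled members are a description, with no test of their difference. The median identity to the parent was 99.4% for the 13 called members with a match and 99.4% for the 236 others, with a median of 3 mismatches in both. The median length was 671 bases for called and 618 bases for uncalled members. The share of stretches of 100 bases that were identical to a transcript of the parent had a median of 46.3% in called and 56.1% in uncalled members. Of the 14 called members, 5 lay within the span of another gene, as did 81 of the 246 others, and 1 called and 7 other members overlapped an exon of another gene. Over all members, 42 carried no difference from the parent over their full length, all 42 of them uncalled, and 156 had an identity of at least 99%. Together the 260 members held between 0.333% and 0.402% of all counts in Tsc1-KO libraries and between 0.312% and 0.350% in WT libraries.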

How the data were processed

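RNA of whole kidney was poly(A)-selected and read on an Illumina HiSeq instrument per the labels. The submitters' processing notes list the tools HISAT2 2.0.4 and HTSeq 0.9.1. No source used here states the build, the annotation, the read length, the strandedness or how reads with several alignments were counted. Of 30587 identifiers, 30572 are in GENCODE M21 (GRCm38) and 29777 have the same position there. Raw counts per gene and library, as deposited, were the basis of every comparison. FPKM made by the authors served in 1 alternative, and a normalized signal, which is counts the authors divided by size factors, was not tested. The authors' own comparison (log2 fold change, p-value and adjusted p-value columns) was not used, nor were the sheets that hold subsets of the table.

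Samples were grouped by labelled genotype, 4 libraries each. The labels do not say that libraries came from separate animals, so p-values measure the spread between libraries. filterByExpr (minimum count 10) kept 18048 genes, and those left out held 0.116% of counts. The main test was the robust quasi-likelihood test of edgeR 4.0.16 (R 4.3.3), two-sided, with TMM factors between 0.961 and 1.05, Benjamini-Hochberg adjustment over all tested genes and a threshold of 0.05. SEs are the size of the log2 change over the root of F. Alternatives used DESeq2 1.42.0, limma 3.58.1, other filters, libraries with or without Y-linked reads, and each library left out. Parents were matched with BLAST+ 2.17.0. Scripts were tested on simulated data. Intervals and floors cover counting error only, because PCR duplicates cannot be told from separate molecules without identifiers.

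The members, the lists and the limits were chosen with earlier results of these data known. Named were members with an all-or-none difference, called members, up to 8 members whose lowest library was under 0.05 of the highest while the genotypes overlapped, the 6 with the highest mean CPM, those nearest the limit on the mean count, parents, up to 3 neighbours per side of an all-or-none member, strain check genes and Tsc1. Eno1, Gm14506, Nyx, Rpl3, Rpl3-ps1 and Rpl3-ps2 were chosen after their values were seen. H2-Ea and Ren2 were not analysed here, and some sequences are not reported here. Fits on summed counts of a parent and its copies (17428 features) were added after seeing the data.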

Additional observations from a re-analysis of the deposited data

Results flagged for a closer look

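Of 120 groups of 4 libraries checked for a library far from the other 3, 11 were picked out. The genes checked included members named because their libraries differed widely, such as Gm6969 and Gm10020, so no chance rate applies. Among the pseudogenes, WT 2 was far above the other WT libraries at Gm4735 (205 CPM), Tsc1-KO 6 was the highest of its genotype at Rps3a2 (167 CPM), WT 3 held the only Hist1h2al count of WT (0.0370 CPM), Tsc1-KO 5 was low at Gm6969 (0.501 CPM) and Tsc1-KO 7 at Gm10020 (0.126 CPM). Among parents, Tsc1-KO 6 was high at Itpa (46.4 CPM), Tsc1-KO 8 at Rpl34 (59.8 CPM) and at Rps3a1 (199.9 CPM), and Tsc1-KO 7 at Rpl17 (111 CPM). Of the other genes, WT 1 was high at Alad (206 CPM) and low at Tsc1 (42.8 CPM).

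Processed pseudogenes on chromosome X were outside the members, and 3 of the 19 with a mean of at least 50 counts were called by edgeR (15.8%), where 4.67% of all tested genes were called. Gm14506 had 75, 98, 64 and 155 counts in Tsc1-KO, against 0, 5, 2 and 1 in WT (log2 change 5.33, adjusted p = 0.000618). Nyx, a protein-coding gene on the other strand whose span ends 1184 bases before that of Gm14506, had 508, 525, 380 and 887 counts in Tsc1-KO, against 4, 3, 4 and 7 in WT (log2 change 6.76, adjusted p = 3.20e-06). Rpl3-ps1, a copy of a large ribosomal subunit gene, had 701, 1017, 657 and 927 counts in Tsc1-KO, against 2306, 3186, 2489 and 3116 in WT (log2 change -1.95, adjusted p = 0.000145). Rpl3-ps2 had 25, 31, 24 and 35 counts in Tsc1-KO, against 89, 72, 70 and 86 in WT (log2 change -1.66, adjusted p = 0.00338). Rpl3, the gene that both symbols name, had a log2 change of the opposite sign that did not pass the test (0.38, edgeR adjusted p = 0.285).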

How the results depend on the processing

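No paired analysis was possible because the labels number WT libraries 1 to 4 and Tsc1-KO libraries 5 to 8, so the genotypes share no number. With 1 library left out, all tested genes gave 327 to 814 higher and 106 to 364 lower calls, the members 7 to 11 higher and 4 to 5 lower, and their parents 5 to 7 higher and 3 to 6 lower. DESeq2 gave 1011 higher and 529 lower calls over all tested genes, 15 and 9 over the members, and 8 lower parents. Over all tested genes, the libraries with Y-linked reads alone gave 37 higher and 23 lower calls (parents 2 and 1), those without gave 251 and 109, and Y-linked reads as a term gave 317 lower calls. A mean count of at least 20 gave 456 members with 17 higher calls, and of at least 100 gave 170 members. All-or-none differences numbered 5 at a ratio of 0.1, where the added Itpa-ps1 and Gm4735 were lower in Tsc1-KO, and 2 at a ratio of 0.02. The causes of these differences were not tested. Fits with 1 library left out or split by Y-linked reads hold fewer libraries, whereas the other alternatives hold all 8.

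Counts summed over a parent and its copies, chosen after seeing the data, include the parent and so are another quantity than a member's own counts. The log2 change of the sum had the opposite sign to the member at Itpa-ps1 (0.24), Gm12191 (0.15), Gm7658 (0.18), Gm48496 (-0.35), Rpl34-ps1 (-0.14), Gm5900 (-0.033), Gm7993 (-1.04), Rps3a2 and Rps3a3 (-0.10), Gm8730 and Gm9625 (-0.12) and Gm10020 (-0.078). In the other alternatives, the signs that turned were of uncalled genes. In libraries with Y-linked reads these were Gm3375 (0.016), Gm47951 (0.12), Rpl17-ps10 (-0.088), Rps10-ps2 (0.070) and Rpl17 (0.42), and in libraries without, Psmb5 (0.12) and Rps10 (0.30). Rpl17-ps10 also turned with DESeq2 (-0.0020), its size factors in edgeR (-0.0021), FPKM with limma (-0.075) and no filter (-0.0017). With 1 library left out, log2 changes ranged from -0.14 to 1.39 for Gm9522, -0.17 to 0.27 for Rpl17-ps10, -0.010 to 0.22 for Rpl17-ps3, -0.35 to 0.092 for Ndufs6b, -0.21 to 0.00048 for Cox7a2l, -0.59 to 0.12 for Rpl17, -0.22 to 0.069 for Rps10 and -0.086 to 0.0080 for H3f3a. All 14 called members kept the sign of their own log2 change in every alternative.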
